A study of Mus musculus with 8 samples.

Results

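Collagens are the fibre- and sheet-forming proteins of the extracellular matrix, and each is a trimer of chains wound into a triple helix, with a separate gene for every chain. The genes described here are the collagen chain genes of the mouse, chosen as the rows of the deposited expression table whose symbol is Col, a number, the letter a and a number. The table held 44 such genes among 36333. They comprise 11 fibrillar genes, 6 genes of type IV, 3 of the basement membrane zone, 9 FACIT genes, 6 of type VI, 4 transmembrane genes, 3 short-chain genes and 2 others.

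Fibrillar collagens such as types I and III form the tensile fibres of connective tissue and are made mainly by fibroblasts and smooth muscle cells. Type IV collagen is the sheet of every basement membrane, the layer under an epithelium or around a vessel or muscle cell, while FACIT collagens bind to the surface of fibres and type VI collagen forms fine beaded filaments near cells. In the prostate, secretory ducts rest on a basement membrane and are wrapped in a stroma of smooth muscle and fibroblasts.

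The samples were ventral prostates of mice aged 12 months, 4 of them hSKP2-KI and 4 WT, each prostate giving a library of its own. In hSKP2-KI animals a P2A-linked coding sequence of human SKP2, the F-box subunit of a ubiquitin ligase that marks cell cycle inhibitors such as p27 for degradation, was knocked into exon 1 of the endogenous probasin gene by CRISPR/Cas9, so that the probasin promoter, which is active in prostate epithelium, drives it. The authors describe the hSKP2-KI males as offspring of heterozygous knock-in females and WT FVB/N males. The line that supplied these mice is not stated. The study stained collagen in prostates of these genotypes and looked at collagen-related genes in the same libraries, so a direction of collagen genes here is not independent evidence for it.

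Values are TPM, a measure of a transcript's share of the library, which are already divided by transcript length, so levels of different genes can be set side by side. Human SKP2 is not a gene of the table. Pbsn, the secretory protein gene at the knock-in site, stood at 84.2 to 155 scaled TPM in hSKP2-KI and 4715 to 9359 in WT. TPM as deposited has a fixed total in each sample, and a few secretory genes held much of it. On that scale Sbp alone had 198342 to 218476 TPM in hSKP2-KI and 232706 to 256865 in WT. Spink1 had 50787.5 to 75952 in hSKP2-KI and 89902.5 to 119903 in WT. The median of all 13080 tested genes lay at a log2 fold change of 0.23 with TPM as deposited and at -0.01 after each sample was divided by a median-ratio size factor (1.07 to 1.12 in hSKP2-KI, 0.828 to 0.987 in WT). Unless stated, every level below is this scaled TPM and every fold change is the log2 difference of scaled TPM + 1, hSKP2-KI minus WT. The main calls are also given with TPM as deposited. Libraries of a genotype correlated at 0.982 to 0.990 across genes, yet hSKP2-KI replicate 2 held the highest value of its genotype in 22 of the 33 tested collagen genes, against 27.0% of all tested genes, and WT replicate 1 held the lowest of its genotype in 22, against 32.2% of all tested genes. Values without hSKP2-KI replicate 2 are therefore given for the main collagen genes. Replicate 1 of hSKP2-KI held the lowest value of its genotype in 21 of the 33, against 27.3% of all tested genes. WT replicate 2 held the highest of its genotype in 17, against 24.8%. These are bulk samples, in which more cells of a type and more RNA per cell cannot be told apart.

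Most tested collagen genes had a positive log2 fold change, but only 1 was called higher in hSKP2-KI, Col14a1, a FACIT chain, and 1 was called lower, Col6a4, a type VI chain. The calls are adjusted p-values under 0.05 in limma across all tested genes. Of the 44 genes, 33 had at least 1 TPM in at least 4 samples and were tested, and 28 had it in every sample. Col6a4 passed that filter through its WT samples alone. The 1 collagen gene called higher is 3.03% of the 33, against 6.92% of all tested genes called higher, and the 1 called lower is also 3.03%, against 4.25%. With TPM as deposited, 18 collagen genes were called higher (54.5%, against 32.7% of all tested genes) and Col6a4 remained the 1 called lower (3.03%, against 1.23%).

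The 33 log2 fold changes ran from -1.10 to 0.78, with 26 above 0 and 7 below (31 and 2 with TPM as deposited, 23 and 10 after quantile normalization), and their median was 0.25, or 0.17 without hSKP2-KI replicate 2. Over all tested genes 6347 of 13080 lay above 0 on scaled TPM. With TPM as deposited the median of all tested genes was itself 0.23. An unadjusted p under 0.05 was found for 15 of the 33 (45.5%), against 27.8% of all tested genes. In 10 of the 33 (30.3%) all 4 hSKP2-KI values lay above all 4 WT values, where 10.3% of all tested genes did so: Col1a1, Col3a1, Col5a1, Col5a2, Col4a1, Col4a2, Col12a1, Col14a1, Col6a1 and Col6a2. With TPM as deposited 16 did so, where 34.0% of all tested genes did. In all 10 the largest value was that of hSKP2-KI replicate 2. All 10 kept a positive log2 fold change without it, which their selection by separate ranges had all but fixed in advance. The reverse order held in Col6a4 alone, 3.03% of the 33 against 8.91% of all tested genes.

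**Figure D1:**
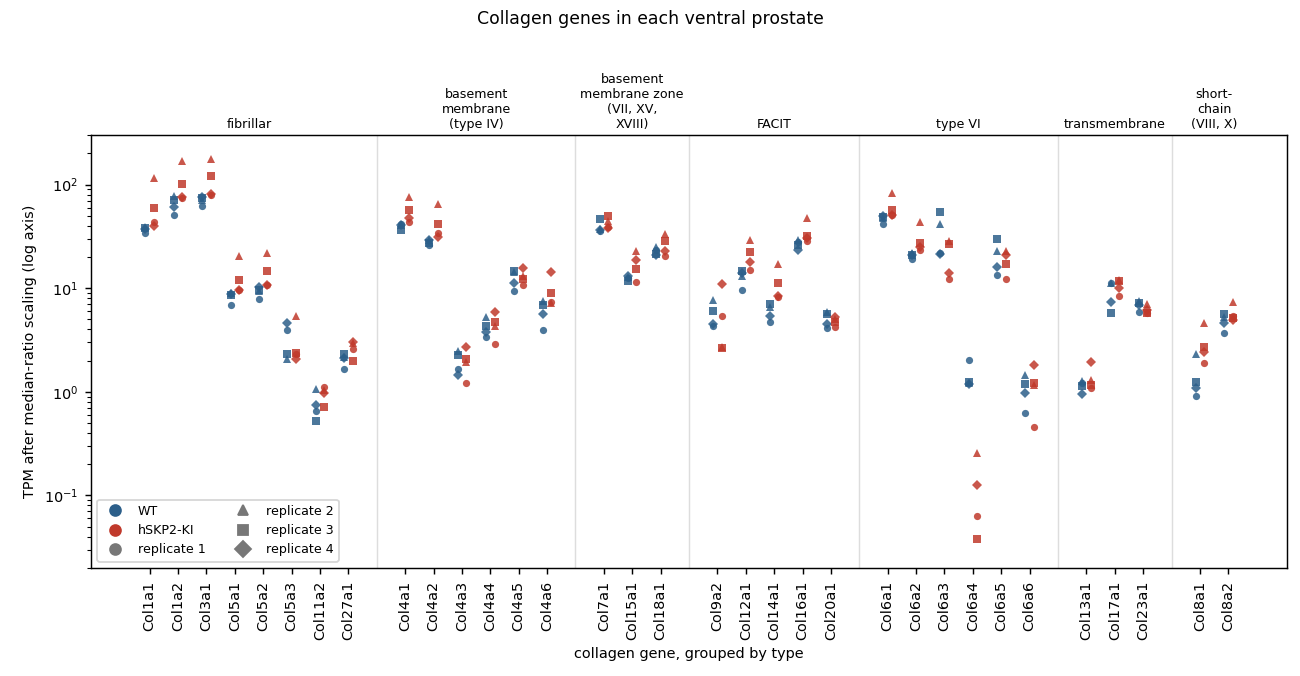
Scaled TPM (log axis) of the 33 tested collagen genes in each of the 8 ventral prostates, grouped by collagen type, with WT in blue, hSKP2-KI in red and a symbol for each replicate number. Red triangles (hSKP2-KI replicate 2) are the highest of their genotype in 22 of the 33 genes, and the red points of Col6a4 lie far below its blue points.

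The fibrillar genes held the largest share of collagen transcripts, and the chains of types I, III and V other than Col5a3 had means 1.56 to 1.74 times as large in hSKP2-KI without passing the adjusted test. Col3a1, the single chain of type III collagen, which forms the thin fibres of distensible organs, had 78.9, 175, 122 and 81.8 scaled TPM in hSKP2-KI replicates 1 to 4 and 61.5, 71.3, 74.9 and 76.0 in WT replicates 1 to 4. Every hSKP2-KI value lay above every WT value, although replicates 1 and 4 exceeded the highest WT sample by little. Its means were 114 ± 44.8 in hSKP2-KI and 70.9 ± 6.58 in WT (SD, n = 4 each), and the log2 fold change was 0.61 (SE 0.22, adjusted p = 0.105). Without hSKP2-KI replicate 2 the log2 fold change was 0.38 (adjusted p = 0.161).

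Col1a2, the second chain of type I collagen, the main tensile fibre of the body, had 73.6, 169, 101 and 75.7 scaled TPM in hSKP2-KI replicates 1 to 4 and 50.8, 77.6, 71.7 and 60.2 in WT replicates 1 to 4. WT replicate 2 exceeded the 2 lowest hSKP2-KI samples, so the genotypes overlapped. The means were 105 ± 44.8 in hSKP2-KI and 65.1 ± 11.96 in WT (SD, n = 4 each). This is a log2 fold change of 0.61 (SE 0.24, adjusted p = 0.134), or 0.36 without hSKP2-KI replicate 2. With TPM as deposited both genes were called, with log2 fold changes of 0.87 for Col3a1 (adjusted p = 0.0162) and 0.88 for Col1a2 (adjusted p = 0.0243).

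The other fibrillar genes divided into chains with the same tendency and chains without it. Col1a1, the partner chain of Col1a2, spread from 40.0 to 116 in hSKP2-KI and 34.2 to 39.1 in WT (log2 fold change 0.65, adjusted p = 0.152, or 0.33 on the log2 scale without hSKP2-KI replicate 2). Col5a1 and Col5a2, whose type V trimers sit inside type I fibres and limit their width, ranged over 9.66 to 20.6 in hSKP2-KI and 6.96 to 8.91 in WT for the former and 10.7 to 22.1 in hSKP2-KI and 7.86 to 10.3 in WT for the latter. Their log2 fold changes were 0.52 and 0.54, with adjusted p = 0.128 and 0.105, and 0.29 and 0.33 without hSKP2-KI replicate 2. Col5a3, the third type V chain, ranged over 2.05 to 5.39 in hSKP2-KI and 2.08 to 4.57 in WT, at a log2 fold change of -0.095, -0.34 without hSKP2-KI replicate 2 and 0.11 with TPM as deposited. Col27a1 had 1.66 to 3.03 scaled TPM over all samples and a log2 fold change of 0.25, and Col11a2 had 0.522 to 1.10 and 0.17. The 8 tested fibrillar genes had a median log2 fold change of 0.53, or 0.31 without hSKP2-KI replicate 2, with 0 called on scaled TPM, 5 at an unadjusted p under 0.05 and 6 called higher with TPM as deposited (the 5 chains of types I, III and V other than Col5a3, and Col27a1). Of all tested genes, 6.92% were called higher on scaled TPM and 27.8% had an unadjusted p under 0.05. With TPM as deposited 32.7% of them were called higher.

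Col3a1 and Col1a2 were the most abundant collagen genes of both genotypes and lie on different chromosomes, Col3a1 at chr1:45311538-45349706 and Col1a2 at chr6:4505618-4541543 (RefSeq, GRCm38.p6, the build matching the mm10 of the processing notes). Col3a1 is a neighbour of Col5a2, 24.6 kb away. Their promoters are shown because these are the most abundant chains: each line is the 250 bases before the RefSeq start, on the plus strand, Col1a2 at chr6:4505368-4505617 and Col3a1 at chr1:45311288-45311537, with capitals for the letters TATAAA of the TATA box, the CCAAT of the box of that name or the letters GGGCGG of the GC box, searched on both strands.
Col1a2: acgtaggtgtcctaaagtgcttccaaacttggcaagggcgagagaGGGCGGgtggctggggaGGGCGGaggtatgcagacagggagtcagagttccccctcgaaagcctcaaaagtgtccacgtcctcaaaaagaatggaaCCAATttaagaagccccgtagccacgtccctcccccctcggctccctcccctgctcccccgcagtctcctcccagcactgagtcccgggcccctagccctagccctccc
Col3a1: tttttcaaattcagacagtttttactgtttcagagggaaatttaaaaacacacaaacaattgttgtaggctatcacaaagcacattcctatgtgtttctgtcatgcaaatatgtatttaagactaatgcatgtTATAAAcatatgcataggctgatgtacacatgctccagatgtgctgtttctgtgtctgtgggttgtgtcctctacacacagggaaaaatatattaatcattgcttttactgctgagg
The Col1a2 window held 2 GGGCGG and 1 CCAAT, and the Col3a1 window held 1 TATAAA. No capital run holds more than 1 of the motifs. Among 32851 windows of this length in the RefSeq table, 12.4% held TATAAA, 33.8% CCAAT and 32.7% GGGCGG. Of 38 windows from 35 of the collagen genes, 5, 13 and 22 held them. A match is a run of letters and does not show that a factor binds there.

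**Figure D2:**
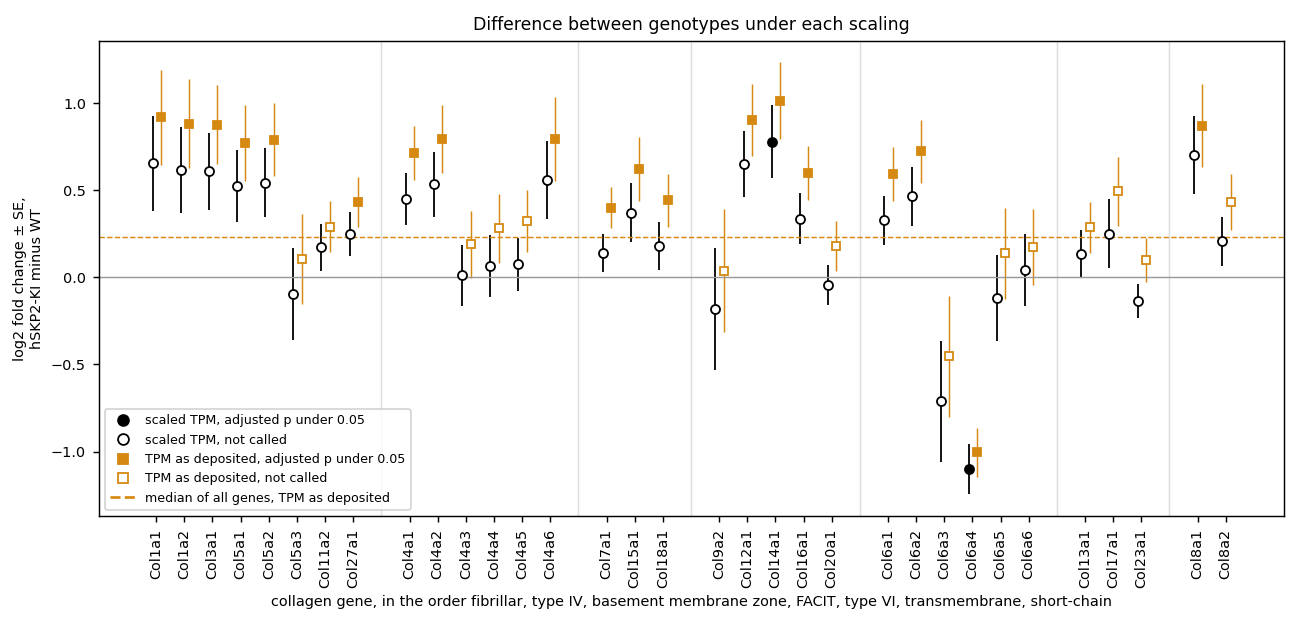
Log2 fold change ± SE (hSKP2-KI minus WT, n = 4 each) of the 33 tested collagen genes with scaled TPM (circles) and with TPM as deposited (squares), filled where the adjusted p was under 0.05. The dashed line is the median of all genes with TPM as deposited, 0.23. Of the circles, those of Col14a1 and Col6a4 are filled, and 19 squares are.

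Among the type IV genes, the ubiquitous pair Col4a1 and Col4a2 had separate ranges in the genotypes, while Col4a3, Col4a4 and Col4a5 had log2 fold changes near 0. None of the 6 was called on scaled TPM in limma, and 3 had an unadjusted p under 0.05. Of all tested genes 6.92% were called higher and 4.25% lower, and 27.8% had an unadjusted p under 0.05. Col4a1 had 43.4, 75.5, 56.5 and 47.7 scaled TPM in hSKP2-KI replicates 1 to 4 and 41.8, 40.4, 36.2 and 40.7 in WT replicates 1 to 4. All 4 hSKP2-KI samples exceeded the WT samples, with replicate 1 close to WT replicate 1. The means were 55.8 ± 14.2 in hSKP2-KI and 39.8 ± 2.46 in WT (SD, n = 4 each). The log2 fold change was 0.45 (SE 0.15, adjusted p = 0.0792), or 0.29 without hSKP2-KI replicate 2. Col4a2, whose product joins Col4a1 chains in the same trimer, had 34.0, 64.7, 41.4 and 31.2 scaled TPM in hSKP2-KI replicates 1 to 4 and 26.3, 29.2, 27.6 and 29.3 in WT replicates 1 to 4. Here too the ranges did not overlap, and replicate 2 stood apart from the other hSKP2-KI samples. The log2 fold change was 0.53 (SE 0.19, adjusted p = 0.0971), or 0.32 without that replicate.

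Col4a3 and Col4a4, chains of the specialised basement membranes of the kidney and inner ear, were expressed at low levels. Col4a3 had 1.22, 1.96, 2.10 and 2.73 scaled TPM in hSKP2-KI replicates 1 to 4 and 1.66, 2.46, 2.25 and 1.45 in WT replicates 1 to 4. Col4a4 had 2.91, 4.30, 4.76 and 5.95 scaled TPM in hSKP2-KI replicates 1 to 4 and 3.39, 5.29, 4.27 and 3.76 in WT replicates 1 to 4. The genotypes overlapped in both, and the log2 fold changes were 0.012 (SE 0.18) and 0.064 (SE 0.18).

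Col4a5 and Col4a6 chains assemble together around smooth muscle and under some epithelia. Col4a5 had 10.8, 12.99, 12.2 and 15.8 scaled TPM in hSKP2-KI replicates 1 to 4 and 9.38, 14.3, 14.5 and 11.1 in WT replicates 1 to 4. Col4a6 had 7.43, 7.21, 8.90 and 14.3 scaled TPM in hSKP2-KI replicates 1 to 4 and 3.95, 7.59, 6.86 and 5.69 in WT replicates 1 to 4. The genotypes overlapped in both. In Col4a6 replicate 4 was the highest hSKP2-KI sample and WT replicate 1 the lowest WT sample. The log2 fold change was 0.074 (SE 0.15, adjusted p = 0.798) for Col4a5 and 0.56 (SE 0.22, adjusted p = 0.133) for Col4a6. On the deposited scale Col4a1, Col4a2 and Col4a6 were called higher (log2 fold changes 0.71, 0.79 and 0.79), where 32.7% of all tested genes were.

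The type IV genes lie in head-to-head pairs in GRCm38.p6. Col4a1 and Col4a2 overlap by 85 bases on chromosome 8, Col4a3 and Col4a4 by 114 bases on chromosome 1, and Col4a5 and Col4a6 are 1274 bases apart on chromosome X. Whether reads were counted by strand is not stated, so reads from the overlapping bases could have been assigned to either gene.

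Of the collagens of the basement membrane zone, none of the 3 was called on scaled TPM in limma, and 0 had an unadjusted p under 0.05 (27.8% of all tested genes had). Col7a1, which forms the anchoring fibrils under stratified epithelia, had 38.8, 44.9, 49.9 and 38.4 scaled TPM in hSKP2-KI replicates 1 to 4 and 35.6, 37.6, 46.2 and 36.5 in WT replicates 1 to 4. The genotypes overlapped, with WT replicate 3 above 3 of the hSKP2-KI samples. Its means were 43.0 ± 5.49 in hSKP2-KI and 39.0 ± 4.90 in WT (SD, n = 4 each), at a log2 fold change of 0.14 (SE 0.11, adjusted p = 0.457). Col18a1, the precursor of endostatin, had 20.4, 33.1, 28.5 and 22.7 scaled TPM in hSKP2-KI replicates 1 to 4 and 23.3, 24.9, 21.2 and 21.1 in WT replicates 1 to 4. Only hSKP2-KI replicates 2 and 3 exceeded the WT range, and the log2 fold change was 0.18 (SE 0.14, adjusted p = 0.432), or 0.062 without replicate 2. Col15a1, its close relative in muscle and vessel basement membranes, ranged over 11.4 to 22.8 in hSKP2-KI and 11.8 to 13.1 in WT (log2 fold change 0.37, adjusted p = 0.189, or 0.22 on the log2 scale without hSKP2-KI replicate 2). All 3 were called higher with TPM as deposited, at log2 fold changes of 0.40, 0.44 and 0.62, where 32.7% of all tested genes were.

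In the FACIT group, Col14a1 was the collagen gene called higher in hSKP2-KI. Its product binds fibres through decorin and regulates how they grow sideways. It had 8.22, 17.1, 11.2 and 8.35 scaled TPM in hSKP2-KI replicates 1 to 4 and 4.69, 6.58, 7.04 and 5.37 in WT replicates 1 to 4. All 4 hSKP2-KI samples lay above the highest WT sample, WT replicate 3, and replicate 2 was again the highest. Means were 11.2 ± 4.15 in hSKP2-KI and 5.92 ± 1.08 in WT (SD, n = 4 each), a 1.90-fold ratio. The log2 fold change was 0.78 (SE 0.21, adjusted p = 0.0414, limma). The call was lost on leaving out any of 6 libraries: the adjusted p was 0.0545 without hSKP2-KI replicate 2 (log2 fold change 0.57), 0.0809 without hSKP2-KI replicate 3, and 0.1004, 0.0645, 0.0522 and 0.0921 without WT replicates 1, 2, 3 and 4. With TPM as deposited the adjusted p was 0.00789 and the log2 fold change 1.01.

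Col16a1, the most abundant FACIT gene, had 28.4, 47.6, 32.0 and 30.5 scaled TPM in hSKP2-KI replicates 1 to 4 and 28.2, 29.0, 26.2 and 23.5 in WT replicates 1 to 4. WT replicate 2 slightly exceeded hSKP2-KI replicate 1, and the log2 fold change was 0.34 (SE 0.15, adjusted p = 0.168), or 0.18 without hSKP2-KI replicate 2. Col12a1, which like Col14a1 lies on the surface of type I fibres, had 14.97, 29.1, 22.5 and 17.9 scaled TPM in hSKP2-KI replicates 1 to 4 and 9.63, 13.2, 14.6 and 13.9 in WT replicates 1 to 4. The genotypes did not overlap, although the adjusted p was 0.0553, just above the threshold, at a log2 fold change of 0.65 (SE 0.19), or 0.49 without hSKP2-KI replicate 2. Col9a2, a cartilage FACIT chain, spread over 2.68 to 11.1 in hSKP2-KI and 4.31 to 7.69 in WT, and hSKP2-KI replicate 4 held its highest value. The log2 fold change of Col9a2 was -0.18 (SE 0.35), or 0.023 without hSKP2-KI replicate 2 and 0.038 with TPM as deposited. Col20a1 ranged over 4.27 to 5.26 in hSKP2-KI and 4.13 to 5.86 in WT, with a log2 fold change of -0.043 (0.18 with TPM as deposited). Col12a1, Col14a1 and Col16a1 were called higher with TPM as deposited, where 32.7% of all tested genes were.

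Within type VI, Col6a4 was called lower in hSKP2-KI, Col6a3 had a smaller mean there, and Col6a1 and Col6a2 had larger values. Col6a1 and Col6a2 chains join one long chain, most often that of Col6a3, in each type VI monomer. Col6a1 had 51.2, 82.1, 56.6 and 51.2 scaled TPM in hSKP2-KI replicates 1 to 4 and 41.8, 47.8, 48.3 and 50.0 in WT replicates 1 to 4. All 4 hSKP2-KI samples lay above the WT samples, with replicates 1 and 4 close to WT replicate 4. Col6a1 had a fitted log2 fold change of 0.33 (SE 0.14, adjusted p = 0.165), and 0.17 without hSKP2-KI replicate 2. Col6a2 ranged over 23.2 to 43.8 in hSKP2-KI and 19.1 to 21.7 in WT (log2 fold change 0.46, adjusted p = 0.102, or 0.27 on the log2 scale without that replicate). Both were called higher with TPM as deposited, at 0.59 and 0.72.

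Col6a3 had 12.4, 28.5, 26.9 and 14.0 scaled TPM in hSKP2-KI replicates 1 to 4 and 21.8, 41.6, 53.9 and 21.2 in WT replicates 1 to 4. In both genotypes the samples fell into a higher pair, replicates 2 and 3, and a lower pair, replicates 1 and 4, and the genotypes overlapped. The means were 20.4 ± 8.40 in hSKP2-KI and 34.7 ± 15.97 in WT (SD, n = 4 each), a 1.70-fold ratio of WT to hSKP2-KI, but the spread left the log2 fold change of -0.71 (SE 0.35) at an adjusted p of 0.216. Before scaling it was -0.45 (adjusted p = 0.300).

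Col6a4, which encodes an alternative long chain of type VI collagen, had 0.0638, 0.257, 0.0378 and 0.126 scaled TPM in hSKP2-KI replicates 1 to 4 and 2.03, 1.22, 1.25 and 1.19 in WT replicates 1 to 4. All 4 hSKP2-KI samples lay far below the WT samples, and WT replicate 1 stood above the other 3. Means were 0.121 ± 0.0979 in hSKP2-KI and 1.42 ± 0.404 in WT (SD, n = 4 each), an 11.7-fold lower mean in hSKP2-KI. The log2 fold change was -1.10 (SE 0.15, adjusted p = 0.00331, limma) on the scale with 1 TPM added, which understates changes of low genes, and -2.85 with 0.1 added. Without hSKP2-KI replicate 2 it was -1.15 (adjusted p = 0.00658), and the gene was also called with TPM as deposited (log2 fold change -1.01, adjusted p = 0.00141). The level is low in both genotypes, and the reads behind it are unknown.

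The values of the remaining long chains overlapped between genotypes. Col6a5 had 12.3, 23.1, 17.3 and 21.1 scaled TPM in hSKP2-KI replicates 1 to 4 and 13.4, 22.7, 30.0 and 15.98 in WT replicates 1 to 4, with a log2 fold change of -0.12 (SE 0.25), or -0.23 without hSKP2-KI replicate 2 and 0.14 with TPM as deposited. Col6a6 ranged over 0.453 to 1.80 in hSKP2-KI and 0.632 to 1.46 in WT, with a log2 fold change of 0.042 (SE 0.21). The Col6a4, Col6a5 and Col6a6 genes are tandem relatives on chromosome 9, 27.8 kb between Col6a6 and Col6a5 and 27.9 kb between Col6a5 and Col6a4. How any reads shared by these related genes were assigned is not stated. Over the 6 type VI genes the median log2 fold change was -0.04, with 1 called lower and 0 higher on scaled TPM (4.25% and 6.92% of all tested genes were). With TPM as deposited 1 was called lower and 2 higher (1.23% and 32.7% of all tested genes were).

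The Col6a4 promoter is shown because it belongs to the collagen gene with the largest difference. Col6a4 occupies chr9:105990318-106096828 on the minus strand of GRCm38.p6. The line gives 250 bases before a RefSeq transcript start, chr9:106096692-106096941, minus strand, read 5′ to 3′, with the same motifs in capitals, GGGCGG appearing as its reverse complement.
Col6a4: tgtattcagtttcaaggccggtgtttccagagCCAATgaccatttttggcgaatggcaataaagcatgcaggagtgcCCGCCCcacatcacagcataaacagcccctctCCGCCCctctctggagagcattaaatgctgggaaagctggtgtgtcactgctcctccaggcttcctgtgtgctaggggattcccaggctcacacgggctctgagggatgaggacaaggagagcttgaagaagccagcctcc
It held 1 CCAAT, 2 GGGCGG on the opposite strand and 0 TATAAA. The longest RefSeq model of the gene starts inside this window.

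**Figure D3:**
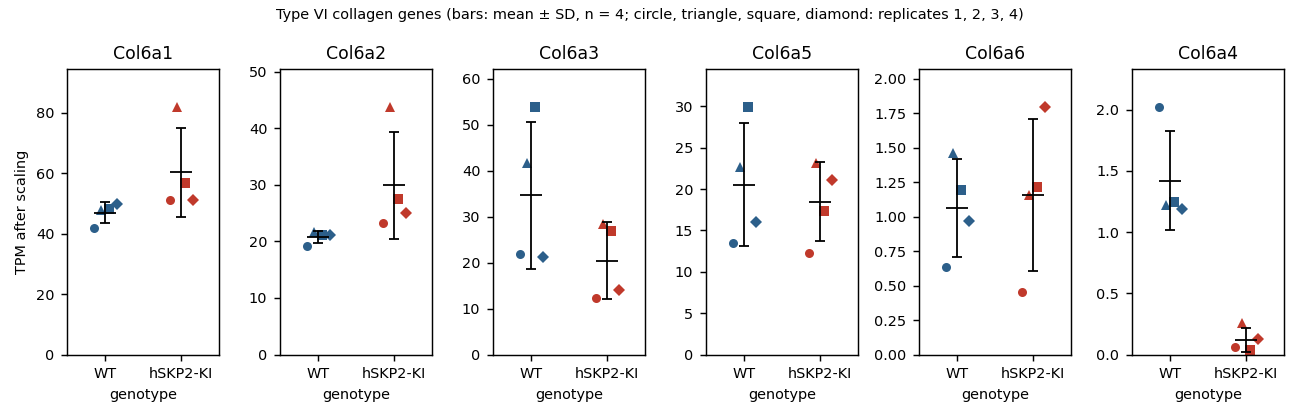
Scaled TPM of the 6 type VI collagen genes in each ventral prostate, with the mean ± SD of each genotype (n = 4) and a symbol for each replicate number. Col6a4 lies at 0.0378 to 0.257 in hSKP2-KI and 1.19 to 2.03 in WT, while Col6a5 and Col6a6 overlap between genotypes.

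None of the 3 tested transmembrane and 2 tested short-chain genes passed the test on scaled TPM in limma, and 0 and 1 of them had an unadjusted p under 0.05 (27.8% of all tested genes had). Col17a1, the hemidesmosome collagen of basal epithelial cells, had 8.43, 11.9, 11.8 and 10.0 scaled TPM in hSKP2-KI replicates 1 to 4 and 11.3, 11.3, 5.79 and 7.40 in WT replicates 1 to 4. WT values alone covered almost that whole range (log2 fold change 0.25, SE 0.20, adjusted p = 0.448). Col23a1 had 5.82, 7.03, 5.76 and 6.17 scaled TPM in hSKP2-KI replicates 1 to 4 and 5.93, 7.54, 7.27 and 6.90 in WT replicates 1 to 4, again with overlapping genotypes (log2 fold change -0.14, SE 0.10, adjusted p = 0.401, turning to 0.10 with TPM as deposited). Col13a1 lay at 0.962 to 1.93 scaled TPM over all samples, with a log2 fold change of 0.14.

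Type VIII collagen is a short-chain network of vessel walls and of Descemet's membrane in the eye. Col8a2 had 5.39, 7.35, 5.18 and 4.89 scaled TPM in hSKP2-KI replicates 1 to 4 and 3.71, 5.28, 5.63 and 4.58 in WT replicates 1 to 4, and the genotypes overlapped (log2 fold change 0.21, SE 0.14, adjusted p = 0.383, or 0.094 on the log2 scale without hSKP2-KI replicate 2). Col8a1 had 1.91, 4.64, 2.72 and 2.40 scaled TPM in hSKP2-KI replicates 1 to 4 and 0.918, 2.31, 1.24 and 1.09 in WT replicates 1 to 4. WT replicate 2 exceeded hSKP2-KI replicate 1, and the other WT samples lay below all hSKP2-KI samples. The Col8a1 means were 2.92 ± 1.19 in hSKP2-KI and 1.39 ± 0.628 in WT (SD, n = 4 each), and the log2 fold change was 0.70 (SE 0.23, adjusted p = 0.0737). It was called higher with TPM as deposited (0.87, adjusted p = 0.0197).

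The 11 collagen genes not tested were mostly those of cartilage, nerve and other specialised tissues: Col2a1, Col11a1, Col24a1, Col9a1, Col9a3, Col19a1, Col22a1, Col25a1, Col10a1, Col26a1 and Col28a1. The highest value among them was 0.936 scaled TPM, of Col11a1 in hSKP2-KI replicate 3. Of these, 6 were listed at 0 in at least 1 sample. Col2a1, the main chain of cartilage collagen, reached 0.0598 scaled TPM at most, and Col10a1, the marker of hypertrophic cartilage, 0.0921.

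Summed over all 44 genes, collagen transcripts amounted to 578, 1095, 765 and 636 scaled TPM in hSKP2-KI replicates 1 to 4 and to 499.6, 614, 617 and 547 in WT replicates 1 to 4. Replicate 1 of hSKP2-KI lay inside the WT range, and replicate 2 stood well above all others. Before scaling the sums were 617 to 1214 in hSKP2-KI and 414 to 606 in WT. In WT the most abundant genes were Col3a1 (70.9 ± 6.58), Col1a2 (65.1 ± 11.96), Col6a1 (47.0 ± 3.56), Col4a1 (39.8 ± 2.46), Col7a1 (39.0 ± 4.90) and Col1a1 (37.3 ± 2.17; scaled TPM, SD, n = 4), which together made up 52.5% of the sum. Neighbours in this order overlapped over the WT samples except at the steps from Col1a2 to Col6a1 and from Col6a1 to Col4a1. In hSKP2-KI the first 3 were Col3a1 (114 ± 44.8), Col1a2 (105 ± 44.8) and Col1a1 (64.9 ± 35.0), and Col6a3 moved from place 7 in WT to place 12.

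As shares of the collagen sum, which do not depend on the scaling, fibrillar genes took 35.3% to 46.9% in hSKP2-KI and 33.6% to 36.7% in WT. Type VI genes took 16.3% to 17.8% in hSKP2-KI and 19.8% to 25.2% in WT, without overlap. The chains of this type did not share that difference evenly. Taken from the genotype means, Col6a3, which was not called, held 2.66% in hSKP2-KI and 6.08% in WT, and Col6a5 2.40% and 3.60%. Col6a1 held 7.84% and 8.25%, and Col6a2 3.89% and 3.64%. Type IV shares overlapped, at 15.2% to 18.5% and 14.9% to 17.3%. These shares are a description with no test, and a larger share of one type lowers the others.

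**Figure D4:**
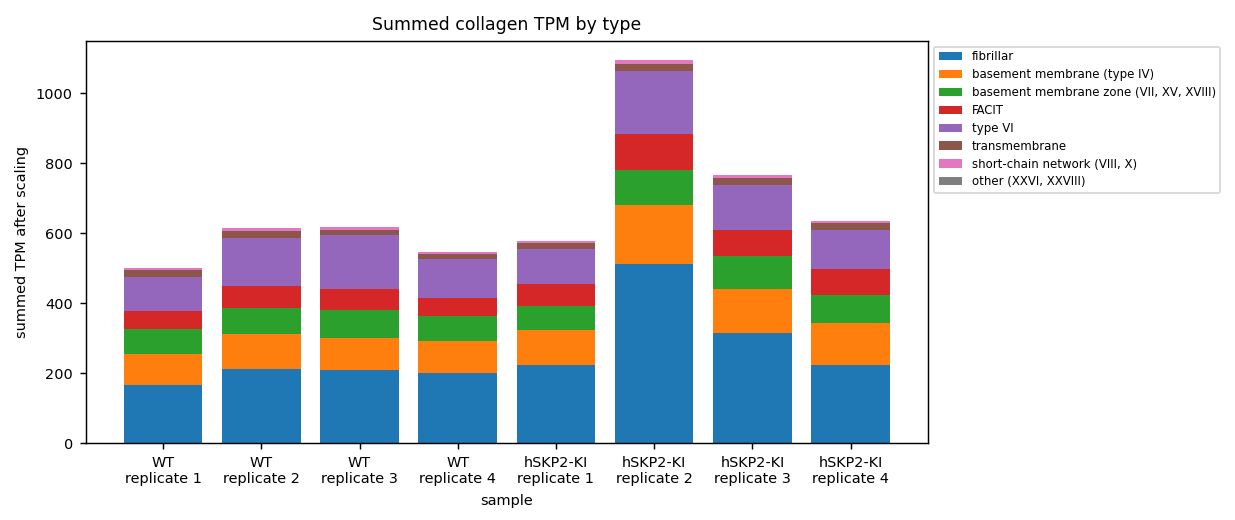
Summed scaled TPM of the 44 collagen genes in each of the 8 ventral prostates, stacked by collagen type. The hSKP2-KI bars reach 578 to 1095 and the WT bars 499.6 to 617, and hSKP2-KI replicate 2 is the tallest.

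Ratios of chains within a sample do not depend on scaling, and 8 were compared with two-sided exact permutation tests over 70 assignments, whose smallest p is 0.0286. Between the partners of type I the difference was smaller than the spread: the log2 ratio of Col1a1 to Col1a2 was -0.74 ± 0.15 in hSKP2-KI and -0.79 ± 0.19 in WT (SD, n = 4 each; exact permutation p = 0.771, adjusted p = 0.857). For Col5a1 to Col5a2 it was -0.18 ± 0.081 in hSKP2-KI and -0.16 ± 0.052 in WT (adjusted p = 0.857, exact permutation), and for Col4a1 to Col4a2 0.41 ± 0.16 in hSKP2-KI and 0.50 ± 0.12 in WT (adjusted p = 0.686, exact permutation). Col3a1 to Col1a1 and Col5a1 to Col1a1 differed by -0.051 and -0.092 between genotypes (adjusted p = 0.857 and 0.686, exact permutation).

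The other ratios differed more, though none passed after adjustment over the 8. The log2 ratio of Col4a5 to Col4a6 was 0.54, 0.85, 0.45 and 0.15 in hSKP2-KI replicates 1 to 4 and 1.25, 0.91, 1.08 and 0.97 in WT replicates 1 to 4. All hSKP2-KI values lay below all WT values, a difference of -0.56 (exact permutation p = 0.0286, adjusted p = 0.152). The log2 ratio of Col6a3 to Col6a1 was -2.04, -1.53, -1.08 and -1.87 in hSKP2-KI replicates 1 to 4 and -0.94, -0.20, 0.16 and -1.24 in WT replicates 1 to 4. Replicate 3 of hSKP2-KI lay above WT replicate 4, and otherwise the genotypes were apart, at a difference of -1.08 (exact permutation p = 0.0571, adjusted p = 0.152). For Col6a1 to Col6a2 the difference was -0.15 (exact permutation p = 0.0571, adjusted p = 0.152).

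**Figure D5:**
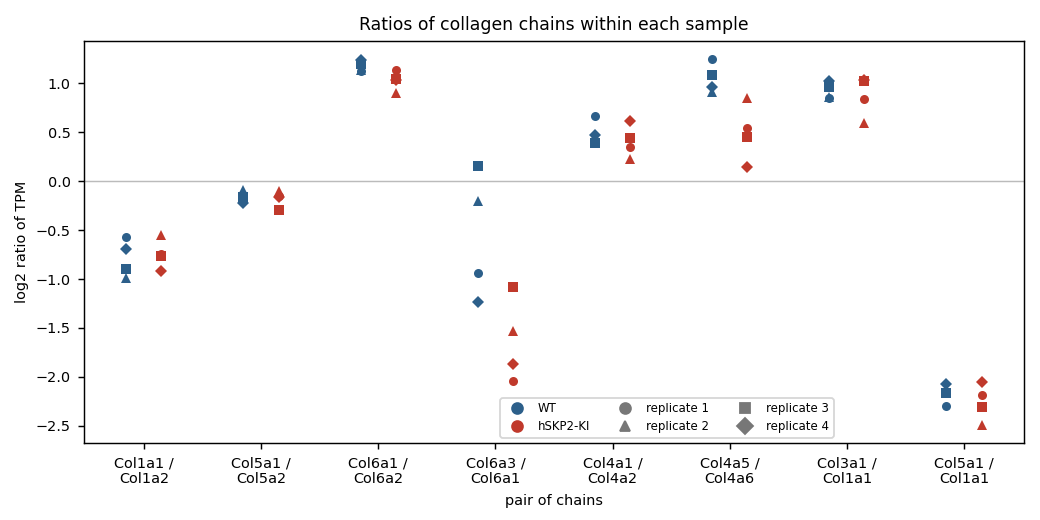
Log2 ratio of TPM of 8 pairs of collagen chains in each ventral prostate, with WT in blue, hSKP2-KI in red and a symbol for each replicate number. The Col4a5/Col4a6 values of hSKP2-KI (0.15 to 0.85) lie below those of WT (0.91 to 1.25), and the Col6a3/Col6a1 values overlap in 1 hSKP2-KI and 1 WT sample.

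Collagen chains are hydroxylated, glycosylated and folded in the endoplasmic reticulum, trimmed of their propeptides on export, cross-linked outside the cell, bound by receptors and finally degraded, and 44 genes of these steps were described beside the chains. Of the 36 tested, 6 were called higher and 0 lower on scaled TPM in limma (6.92% and 4.25% of all tested genes were), 21 had an unadjusted p under 0.05 (27.8% of all tested genes had), and 21 were called higher and 0 lower with TPM as deposited (32.7% and 1.23%). Their median log2 fold change was 0.36, or 0.24 without hSKP2-KI replicate 2. In 13 the hSKP2-KI values lay above all WT values, and in 2, P4hb and Ddr1, below (10.3% and 8.91% of all tested genes), while with TPM as deposited 20 lay above and 0 below (34.0% and 1.03%). The number called higher was 6 without hSKP2-KI replicate 2, but 2 without hSKP2-KI replicate 4 and 2 without WT replicate 1.

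P3h1 and P3h3, prolyl 3-hydroxylases, were called higher. P3h1 had 8.14, 12.1, 9.16 and 10.3 scaled TPM in hSKP2-KI replicates 1 to 4 and 6.55, 7.18, 6.03 and 6.66 in WT replicates 1 to 4 (log2 fold change 0.51, SE 0.11, adjusted p = 0.0213). P3h3 lay at 14.8 to 21.0 in hSKP2-KI and 11.4 to 13.9 in WT (log2 fold change 0.48, SE 0.11, adjusted p = 0.0216). Both were higher in 4 of 4 hSKP2-KI samples than in any WT sample. P4hb, the shared subunit of prolyl 4-hydroxylase and an abundant disulfide isomerase of secretory cells, had 1204 to 1412 in hSKP2-KI and 1475 to 1520.3 in WT and differed by -0.18 on the log2 scale (adjusted p = 0.216), turning to 0.091 with overlapping genotypes when TPM was used as deposited. P4ha1 and P4ha2, its catalytic partners, had log2 fold changes of 0.35 and 0.36 (adjusted p = 0.0661 and 0.0582).

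In the later steps, 1 gene each was called for propeptide removal, cross-linking, receptors and turnover. Pcolce2, an enhancer of the C-propeptide proteinase, had 6.98, 10.1, 7.96 and 8.35 scaled TPM in hSKP2-KI replicates 1 to 4 and 3.39, 4.89, 4.17 and 5.87 in WT replicates 1 to 4 (log2 fold change 0.75, SE 0.15, adjusted p = 0.0143). The Loxl3 cross-linking oxidase lay at 4.17 to 5.204 in hSKP2-KI and 2.94 to 3.42 in WT (log2 fold change 0.44, SE 0.094, adjusted p = 0.0186). Both genes had separate ranges in the genotypes. Ddr2, a tyrosine kinase receptor for fibrillar collagen on mesenchymal cells, had 13.3, 19.6, 14.99 and 17.7 scaled TPM in hSKP2-KI replicates 1 to 4 and 7.77, 11.03, 12.7 and 9.91 in WT replicates 1 to 4 (log2 fold change 0.62, SE 0.15, adjusted p = 0.0300). Its epithelial relative Ddr1 had 35.0 to 37.2 in hSKP2-KI and 37.5 to 44.8 in WT (log2 fold change -0.17, SE 0.069, adjusted p = 0.139), but 0.093 with TPM as deposited, where the genotypes overlapped. Mmp14, a membrane-bound collagenase, ranged over 30.3 to 44.6 in hSKP2-KI and 23.5 to 26.8 in WT (log2 fold change 0.45, SE 0.11, adjusted p = 0.0316). The calls other than that of Pcolce2 were each lost without at least 1 library, at adjusted p = 0.0502 to 0.0780.

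The other companion genes were not called. Serpinh1, the collagen chaperone of the endoplasmic reticulum, lay at 51.0 to 88.1 in hSKP2-KI and 40.1 to 47.4 in WT (log2 fold change 0.50, SE 0.15, adjusted p = 0.0543). For Plod1, a lysyl hydroxylase, the log2 fold change was 0.35 (adjusted p = 0.0874), and for Colgalt1, which adds galactose to hydroxylysine, -0.34 (adjusted p = 0.0553). Plod2, Mia3, Pepd and P3h4 also had negative values against the direction of their step, -0.10, -0.16, -0.09 and -0.0079, all 4 positive with TPM as deposited (0.16, 0.11, 0.17 and 0.26). Ctsk, a lysosomal collagenase, had a log2 fold change of 0.95 (SE 0.34, adjusted p = 0.102), or 0.56 without hSKP2-KI replicate 2. Its level was 3.19 to 22.3 scaled TPM, with the highest value in hSKP2-KI replicate 2.

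Markers of fibroblasts, the main source of fibrillar collagen, had a median log2 fold change of 0.77. It was 0.25 for all tested collagen genes and 0.53 for the fibrillar ones. Of 8 fibroblast markers 5 were called higher and 0 lower (Dcn, Lum, Dpt, Pi16 and Clec3b), where 6.92% of all tested genes were called higher. Those not called were Pdgfra, Pdgfrb and Fbln1, with log2 fold changes of 0.36, 0.30 and 0.65 (adjusted p = 0.147, 0.282 and 0.0723, limma). The genotypes overlapped in Pdgfra and Pdgfrb. The summed level of the 8 markers was 717 to 1103 scaled TPM in hSKP2-KI and 480 to 554 in WT, highest in hSKP2-KI replicate 2. Lum, a proteoglycan of collagen fibres, had 17.7, 29.7, 21.5 and 15.3 scaled TPM in hSKP2-KI replicates 1 to 4 and 4.91, 8.71, 5.28 and 6.64 in WT replicates 1 to 4 (log2 fold change 1.56, SE 0.21, adjusted p = 0.00331). For smooth muscle, 2 of 6 markers were called higher (Myh11 and Cnn1), and the sum was 2549 to 3896 in hSKP2-KI and 1943 to 2535 in WT. Endothelial markers gave 1 call of 6 (Pecam1, higher), at sums of 33.2 to 56.2 and 27.4 to 33.9. Leukocyte markers gave 0 calls of 4 and 1 unadjusted p under 0.05, at 18.7 to 66.6 and 9.63 to 29.7, and here too hSKP2-KI replicate 2 had the highest sum. Luminal epithelial markers gave 0 calls of 4 and 0 unadjusted p under 0.05, at 1445 to 1706 in hSKP2-KI and 1468 to 1668 in WT. No basal epithelial, Schwann cell, adipocyte or skeletal muscle marker was called on scaled TPM in limma (4, 3, 4 and 3 tested, with 1, 0, 0 and 1 at an unadjusted p under 0.05). Of all tested genes 27.8% had such an unadjusted p. Of the chondrocyte markers, Acan and Matn1 were listed at 0 in all samples. With TPM as deposited, where 32.7% of all tested genes were called higher, the calls were 7 of 8 fibroblast, 6 of 6 smooth muscle, 4 of 6 endothelial, 1 of 4 leukocyte, 2 of 4 luminal epithelial, 2 of 4 basal epithelial and 1 of 3 skeletal muscle markers, all higher, and 0 Schwann cell or adipocyte markers. The part of these cell types in the collagen values was not tested.

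Taken within each sample as the mean log2(scaled TPM + 1) of the tested genes of a type minus that of the 8 fibroblast markers, each of the 4 collagen types computed (fibrillar, type IV, FACIT and type VI) had a smaller mean in hSKP2-KI. For the fibrillar genes this value was -1.41, -1.33, -1.36 and -1.59 in hSKP2-KI replicates 1 to 4 and -1.04, -1.11, -0.90 and -1.08 in WT replicates 1 to 4. For type VI it was -2.05, -2.08, -1.79 and -1.88 in hSKP2-KI and -1.06, -0.95, -0.60 and -1.26 in WT. The type VI mean includes Col6a4, which was called lower and passed the filter through its WT samples alone. The genotypes did not overlap in any of the 4 types. They were closest for type IV and FACIT genes, where the highest hSKP2-KI values were -1.40 and -1.55 and the lowest WT values -1.36 and -1.51. The fibroblast marker mean subtracted in all 4 types was itself 5.12 to 5.88 in hSKP2-KI and 4.45 to 4.73 in WT, so some separation in this direction was built in. Before the subtraction the fibrillar mean was 3.70 to 4.55 in hSKP2-KI and 3.42 to 3.65 in WT. It was 3.39 to 3.89 and 3.24 to 3.63 for type IV, and 3.43 to 3.84 and 3.11 to 3.51 for FACIT genes. For type VI it was 3.07 to 3.80 in hSKP2-KI and 3.40 to 3.85 in WT. For type IV genes the mean was -1.67 ± 0.27 in hSKP2-KI and -1.15 ± 0.18 in WT, and for FACIT genes -1.76 ± 0.21 and -1.27 ± 0.22 (SD, n = 4 each). These values are a description with no test, since the markers themselves were called higher.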

How the data were processed

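Poly-A RNA of 8 ventral prostates was sequenced with paired ends, and the authors trimmed the reads and mapped them to the mouse genome in CLC. The submitters' processing notes name mm10 and GRCm38, and counting options and annotation are not given in the sources used here. The authors deposited TPM, reads per gene divided by transcript length and scaled to a fixed total in each sample. The table held 0 columns of other samples. TPM keeps no counts, so depth is unknown and no count model was used.

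The tested genes had 1 TPM or more in 4 or more samples (13080 of 36333). TPM was divided by median-ratio size factors, and log2(value + 1) was fitted with limma 3.58.1 (trend; R 4.3.3) on genotype alone, with Benjamini-Hochberg adjustment over all tested genes and a threshold of 0.05. Code was tested on simulated data. Chain ratios were compared with exact permutation tests in scipy 1.17.1, and figures were drawn with matplotlib 3.10.9. The alternatives were TPM as deposited, normalization by quantiles, rescaling with the 20 most abundant genes left out, a pseudocount of 0.1, no filter, a mean TPM of at least 5, a replicate block, array weights, robust empirical Bayes and omission of each sample.

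Genotypes come from the sample labels, which make each sample a separate mouse and give no batch. All 44 collagen genes are named. Values of every sample are given for the 2 most abundant of each type, for called genes with an absolute log2 fold change of at least 1, and for the type IV pairs. Col14a1, Col6a5 and some companion genes and markers are given in the same way, chosen after their values were seen. Of the companion genes (steps of collagen synthesis, processing, binding and turnover), the called ones and those against the direction of their step are named, with a few more chosen after their values were seen. The members and lists were chosen with earlier results of these data known. Coordinates and promoters are from RefSeq (GRCm38.p6), matched by Entrez identifier for all 44 genes.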

Additional observations from a re-analysis of the deposited data

Results flagged for a closer look

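Among 82 groups of 4 samples (the 33 tested collagen genes and 8 chain ratios in each genotype), 3 had a sample whose gap to the nearest other sample was a larger share of the range of the group than Dixon's critical value, which chance alone passes in about 1 group of 20. Col5a1 stood at 6.96 scaled TPM in WT replicate 1, below the other WT samples. Col5a3 stood at 5.39 scaled TPM in hSKP2-KI replicate 2, above the other hSKP2-KI samples, and its log2 fold change was -0.095 with that library and -0.34 without it. Col6a4 stood at 2.03 scaled TPM in WT replicate 1, above the other WT samples, and without that library its log2 fold change was -1.01 (adjusted p = 0.00828, limma).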

How the results depend on the processing

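Of the alternatives run, TPM as deposited moved the count of collagen calls most. With TPM as deposited 4272 genes were called higher and 161 lower, among them 18 collagen genes and 21 companion genes higher, and the log2 fold changes of Col5a3 (0.11), Col9a2 (0.038), Col20a1 (0.18), Col6a5 (0.14) and Col23a1 (0.097) turned positive. Quantile normalization left 0 collagen genes called higher (Col14a1 at an adjusted p of 0.0521) and turned Col4a3 (-0.13), Col4a4 (-0.042) and Col6a6 (-0.11) negative. With no filter, where more genes are adjusted for, 526 genes were called higher and 358 lower, 0 collagen genes higher, and 2 companion genes higher and 1 lower. With a mean TPM of at least 5, 576 genes were called higher and 0 collagen genes lower, since Col6a4 was not tested. Array weights gave 10 companion genes higher and 1 lower, and the cause was not tested. A pseudocount of 0.1 moved the type VI value against fibroblast markers to -1.32. Col6a4 was called lower under every alternative that tested it. Without one library, 468 to 810 genes were called higher and 297 to 481 lower, 0 to 4 collagen genes higher (4 without hSKP2-KI replicate 1: Col4a1, Col15a1, Col12a1 and Col14a1; 0 without hSKP2-KI replicates 2 or 3 or WT replicates 1, 3 or 4; Col8a1 alone without WT replicate 2) and 1 lower, and 2 to 7 companion genes higher and 0 to 1 lower (1 without hSKP2-KI replicate 2 or WT replicate 1). Log2 fold changes that crossed 0 ran from -0.34 to 0.053 for Col5a3, -0.10 to 0.15 for Col4a3, -0.060 to 0.21 for Col4a4, -0.040 to 0.15 for Col4a5, -0.54 to 0.030 for Col9a2, -0.12 to 0.023 for Col20a1, -0.29 to 0.078 for Col6a5 and -0.095 to 0.22 for Col6a6, and differences of log2 ratios from -0.024 to 0.12 for Col1a1/Col1a2, -0.039 to 0.025 for Col5a1/Col5a2 and -0.10 to 0.042 for Col3a1/Col1a1. Col4a5/Col4a6 ran from -0.67 to -0.44, with 4 samples against 3, where the smallest exact permutation p is 0.0571.

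The labels do not say whether replicate numbers pair these mice. Deviations of same-numbered samples from their genotype means correlated at 0.23, -0.11, 0.17 and -0.01 across genes, which cannot decide it. Among the 33 tested collagen genes, replicate 1 was the lowest of its genotype in 21 for hSKP2-KI and 22 for WT. Replicate 2 was the highest in 22 and 17. With the replicate number as a block, 4 collagen genes were called higher (Col1a2, Col12a1, Col14a1 and Col8a1) and 2 lower (Col6a3 and Col6a4), and 13 companion genes higher. Depth is unknown, so the precision of low genes such as Col6a4 cannot be given from counts.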
